A study of Homo sapiens with 14 samples.

Results

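The genes of cholesterol synthesis and sterol control are a set of 30 genes, taken by symbol from the 23040 genes of the files. The set holds 8 genes of the mevalonate pathway, 13 of the route from farnesyl diphosphate to cholesterol, 4 of the sterol sensor, 3 of sterol uptake and transport and 2 of sterol efflux. The first 2 groups, 21 genes, are called enzymes below. Among them C14orf1 encodes a scaffold, and GGPS1 acts off the route to cholesterol. All 30 were found, and all 30 reached 1 RPKM in at least 2 libraries and were tested. RPKM is reads per kilobase of transcript per M mapped reads, so levels can be compared between genes. Some symbols are older ones: SC4MOL is now MSMO1, SC5DL is SC5D and C14orf1 is ERG28.

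Total RNA was sequenced from Panc-1 and AsPC-1, established human pancreatic cancer cell lines. Serum-starved cells received angiogenin (ANG, or hRNase5; 1 µg/ml), a secreted ribonuclease, or EGF, the epidermal growth factor (50 ng/ml), which binds EGFR. The series title names ANG as a further ligand of EGFR, and the doses of the 2 ligands differ. RNA was taken 1, 5 or 24 h later. With an untreated mock library per line, whose time and serum are not in the labels, there were 14 libraries, 1 for each line and condition. No condition was repeated within a line, so the p-values below measure only the spread between lines, ligands or times.

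Cells make cholesterol from acetyl-CoA. The mevalonate pathway builds isoprenoid units and joins them to farnesyl diphosphate, from which squalene, lanosterol and then cholesterol are made. SREBF2 encodes the transcription factor SREBP-2, which is held in the endoplasmic reticulum with its escort SCAP and the retention proteins INSIG1 and INSIG2 while sterols are plentiful, and is cut and sent to the nucleus when they are scarce. There it acts with the CCAAT-binding factor NF-Y and with Sp1 at promoters of the pathway. Oxysterols act in the other direction through the LXR receptors, which drive the efflux transporters ABCA1 and ABCG1 and the ubiquitin ligase MYLIP.

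Promoters of the pathway are shown because the enzymes described below moved together. RefSeq (GRCh38.p14) held promoters, from 250 bases before to 50 bases after the start of transcription, for 26 of the 30 genes, 34 promoters in all; ACAT2, FDFT1, SQLE and ABCG1 are named only. The letters CCAAT on either strand stood in at least 1 promoter of 19 of the 26 genes, against 39.7% of the 27305 symbols of the table. The first 5 windows below are the 160 bases before the start of genes with a large difference over time, and the last 5 belong to genes with a small one or with a difference in a single line. Of those 5, LBR, PMVK and INSIG2 had no CCAAT, and NSDHL and EBP did, as did MYLIP, which is not shown. Each window belongs to the promoter listed first for its gene. DHCR7 and INSIG2 each have another promoter in the list, and both of those hold no CCAAT. The windows were picked with the values known and are examples. Capitals mark CCAAT, or ATTGG where it lies on the other strand. They run 5′ to 3′ along the gene and are at chr4:165327509-165327668 (SC4MOL, plus strand), chr11:71448394-71448553 (DHCR7, minus), chr16:88663092-88663251 (MVD, minus), chr14:75660877-75661036 (C14orf1, minus), chr1:155308706-155308865 (FDPS, plus), chr1:225428822-225428981 (LBR, minus), chr1:154936720-154936879 (PMVK, minus), chr2:118088311-118088470 (INSIG2, plus), chrX:152830903-152831062 (NSDHL, plus) and chrX:48521648-48521807 (EBP, plus).
SC4MOL: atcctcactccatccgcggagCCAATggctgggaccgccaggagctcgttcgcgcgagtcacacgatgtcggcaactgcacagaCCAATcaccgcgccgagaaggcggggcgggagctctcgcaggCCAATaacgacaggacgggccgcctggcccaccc
DHCR7: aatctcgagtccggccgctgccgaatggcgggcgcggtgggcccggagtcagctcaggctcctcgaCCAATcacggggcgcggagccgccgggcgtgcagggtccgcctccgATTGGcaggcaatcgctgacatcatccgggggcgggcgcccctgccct
MVD: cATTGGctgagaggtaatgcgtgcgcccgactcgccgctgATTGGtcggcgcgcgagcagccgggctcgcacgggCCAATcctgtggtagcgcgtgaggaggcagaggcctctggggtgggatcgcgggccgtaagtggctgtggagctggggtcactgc
C14orf1: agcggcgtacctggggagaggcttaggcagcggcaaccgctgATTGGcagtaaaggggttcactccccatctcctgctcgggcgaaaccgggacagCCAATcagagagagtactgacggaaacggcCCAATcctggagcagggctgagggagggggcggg
FDPS: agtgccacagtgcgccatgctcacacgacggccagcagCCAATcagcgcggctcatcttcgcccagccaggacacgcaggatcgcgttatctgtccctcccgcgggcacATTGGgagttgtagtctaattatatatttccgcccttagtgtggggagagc
LBR: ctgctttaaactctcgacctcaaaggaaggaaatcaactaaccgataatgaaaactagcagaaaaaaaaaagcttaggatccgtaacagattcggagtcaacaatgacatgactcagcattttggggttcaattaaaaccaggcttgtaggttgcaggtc
PMVK: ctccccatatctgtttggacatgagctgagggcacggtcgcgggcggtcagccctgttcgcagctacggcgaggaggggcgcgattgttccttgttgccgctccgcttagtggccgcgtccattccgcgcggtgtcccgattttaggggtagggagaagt
INSIG2: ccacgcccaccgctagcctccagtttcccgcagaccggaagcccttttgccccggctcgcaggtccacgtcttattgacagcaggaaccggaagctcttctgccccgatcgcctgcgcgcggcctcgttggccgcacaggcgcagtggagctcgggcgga
NSDHL: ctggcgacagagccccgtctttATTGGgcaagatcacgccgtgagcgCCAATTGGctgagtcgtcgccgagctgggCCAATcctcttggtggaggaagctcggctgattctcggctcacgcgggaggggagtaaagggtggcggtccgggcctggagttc
EBP: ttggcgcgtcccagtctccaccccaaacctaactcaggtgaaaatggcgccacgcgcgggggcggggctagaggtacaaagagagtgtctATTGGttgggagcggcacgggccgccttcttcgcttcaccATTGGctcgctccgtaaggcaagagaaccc

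SC4MOL, MVD and C14orf1 each held 3 such matches in these windows, DHCR7, FDPS and EBP held 2, and NSDHL held 4, of which 2 overlap. The sterol regulatory element was searched as TCACNCCAC on both strands and was found in 1 of the 26 genes, SREBF2, against 1.4% of all symbols (1.13% of all 35116 promoters). That match, TCACCCCAC, starts 133 bases before the start of SREBF2 and is in capitals in the window chr22:41832942-41833010 (plus strand).
SREBF2: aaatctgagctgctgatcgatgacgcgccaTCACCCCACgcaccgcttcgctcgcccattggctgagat

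The GC box GGGCGG stood in 24 of the 26 genes (48.3% of all symbols) and the E-box CACGTG in 5 (8.8%), counted like CCAAT over any promoter of a gene. CCAAT was in 13 of the 14 genes with a promoter entry that were called higher at 24 h below, and in 6 of the 12 that were not. This split uses the calls of these same data, and a link between the letters and the calls was not tested. The shares of symbols are over the whole promoter table, whether or not a gene was expressed here. These matches are letters in a window and no measure of binding.

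Estimated depths were 11.1 to 16.7 M reads for the Panc-1 libraries and 18.7 to 23.7 M for those of AsPC-1, so 1 read in 2 kb of transcript was worth 0.0211 to 0.0450 RPKM. Genes under 400 bp took 5.11 to 17.2% of the reads. The epithelial keratins KRT8, KRT18, KRT19 and KRT7 (4 of 4) were expressed in both lines, and the acinar, endocrine and endothelial markers summed to at most 0.98 RPKM in any library. In Panc-1 the 4 leukocyte markers summed to 30.3 to 49.8 RPKM, with 2 of 4 reaching 1 RPKM. In AsPC-1 they summed to 170 to 187 RPKM at 1 and 5 h and 244 to 545 RPKM in mock and at 24 h. All of it was CD68 and LYZ, with PTPRC and CD3E at 0 in every AsPC-1 library. The 4 fibroblast markers summed to 26.7 to 46.7 RPKM there, with 1 of 4 expressed and PDGFRA at 0, and were also lower at 1 and 5 h (26.7 to 30.9 RPKM) than in the rest. In Panc-1 the keratins summed to 883 to 1002 RPKM at 1 and 5 h and 1120 to 1359 RPKM in mock and at 24 h. The part of these markers in the results below was not tested. In bulk RNA, fewer cells with a transcript and less of it per cell cannot be told apart.

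In both lines most of the sterol genes stood low after 1 and 5 h of either ligand and high in mock and after 24 h. Summed over the 21 enzymes, Panc-1 held 1290 RPKM in mock, 494 to 600 RPKM in the 4 libraries of 1 and 5 h, and 1122 (ANG) and 1186 RPKM (EGF) after 24 h. AsPC-1 held 584 RPKM in mock, 291 to 322 RPKM at 1 and 5 h, and 540 and 641 RPKM after 24 h. Both ligands showed this course. All 4 libraries of 1 and 5 h lay below mock and both 24 h libraries for 23 of the 30 genes in Panc-1 (25.4% of all genes tested) and for 20 of 30 in AsPC-1 (31.5%), and 16 genes did so in both lines (7.99% of all genes). The opposite order was seen for PMVK in Panc-1 (20.9% of all genes) and for ABCG1 in AsPC-1 (19.4%).

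**Figure D1:**
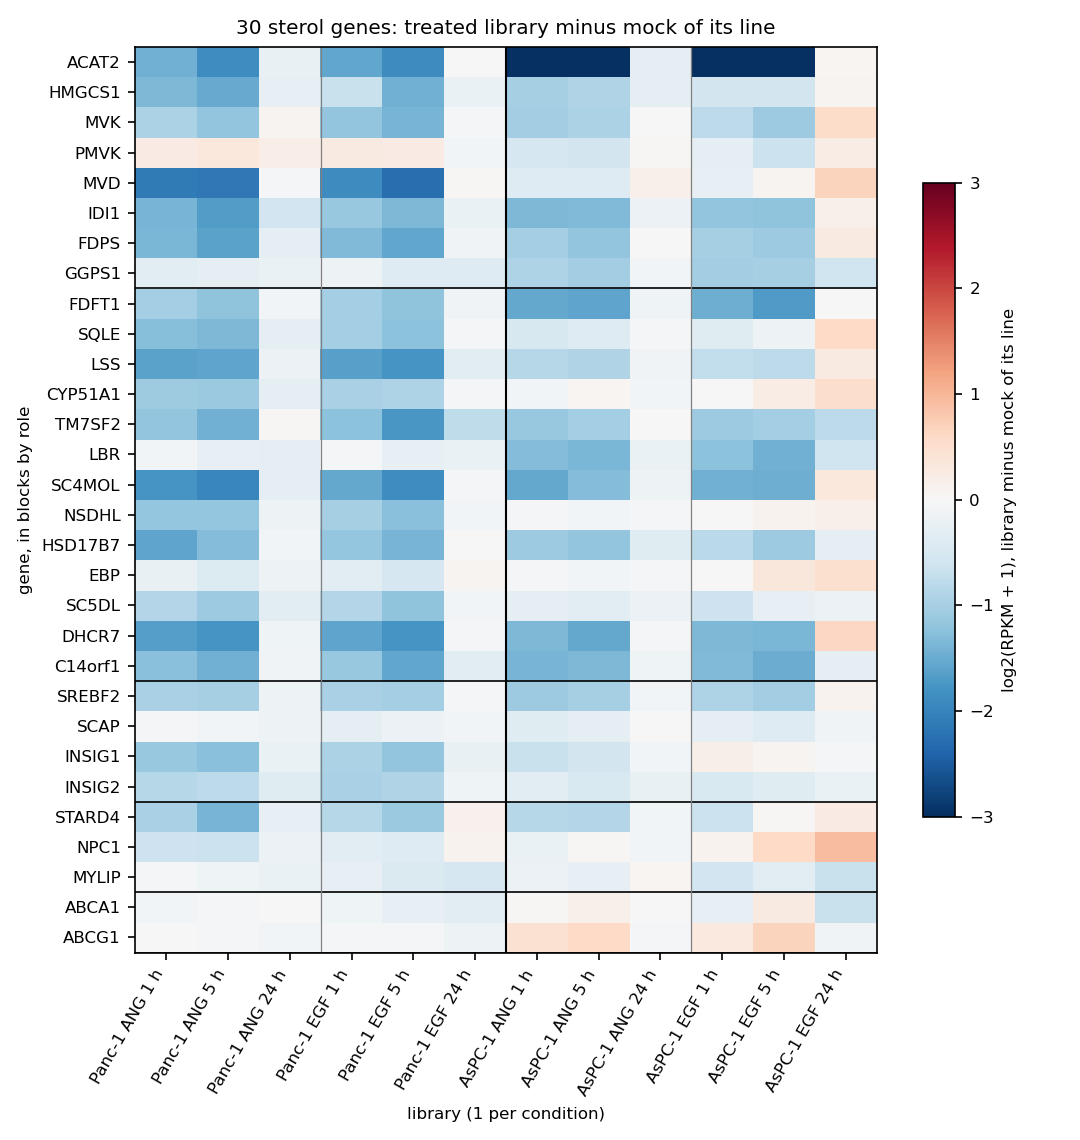
Difference of each treated library from the mock library of its line, in log2(RPKM + 1), for the 30 genes in blocks by role (mevalonate, sterol, sensor, uptake and transport, efflux); colours are capped at -3 and 3, and each column is 1 library. The 1 and 5 h columns are blue for most enzymes in both lines, and the 24 h columns are near white for most. TM7SF2 is below mock at 24 h of EGF in both lines (33.5 against 57.4 RPKM in Panc-1, 3.31 against 6.38 RPKM in AsPC-1). Among the enzymes that stay pale are MVD, CYP51A1, NSDHL, SC5DL and EBP in AsPC-1, and PMVK, GGPS1 and LBR in Panc-1.

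The comparison over time asked how the genes differed between 24 h and the mean of 1 and 5 h, within the 4 courses of line and ligand and without the mock libraries. Of the 30 genes 17 rose to 24 h and 0 fell, against 8.82% of all 13427 genes tested that rose and 6.4% that fell, 15.2% together (limma on log2(RPKM + 1), Benjamini-Hochberg adjusted p under 0.05). The median log2 difference was 0.83 over the 30 genes and 1.01 over the 21 enzymes, against 0.06 over all genes tested. By role, 6 of 8 mevalonate enzymes rose, 8 of 13 sterol enzymes, 2 of 4 sensor genes, 1 of 3 uptake and transport genes and 0 of 2 efflux genes. Of these 17 genes 15 passed under each of 16 other settings; TM7SF2 was lost without the AsPC-1 library of 24 h ANG (adjusted p = 0.0517), and INSIG2 passed in 3 of the 16 (adjusted p up to 0.102).

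The G2/M genes, a list of 18 genes of mitosis, moved with time as well, but in opposite directions in the 2 lines. In Panc-1 18 of 18 fell to 24 h (median -1.51; summed 1115 to 1343 RPKM at 1 and 5 h and 384 to 476 RPKM in mock and at 24 h). In AsPC-1 18 of 18 rose (median 2.79; summed 76.2 to 181 RPKM at 1 and 5 h and 711 to 1029 RPKM in mock and at 24 h). Their part in the results on the sterol genes was not tested.

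Among the mevalonate enzymes ACAT2, which joins 2 acetyl-CoA at the entry to the pathway (chromosome 6, 160182989 to 160200087, hg19), had the largest difference of the set. In Panc-1 it stood at 135 RPKM in mock, at 49.2, 36.5 and 116 RPKM after 1, 5 and 24 h of ANG, and at 45.0, 35.6 and 133 RPKM after 1, 5 and 24 h of EGF. In AsPC-1 it stood at 29.7 RPKM in mock, at 2.74, 2.46 and 24.0 RPKM with ANG and at 2.55, 2.37 and 31.0 RPKM with EGF. The early libraries lay below the others without overlap in both lines, and the mean of 24 h was 2.98 times that of 1 and 5 h in Panc-1 and 10.9 times in AsPC-1. The log2 difference was 2.28 ± 0.26 (SE; limma adjusted p = 0.00342). ACAT2 shares 558 bases with TCP1 on the opposite strand (67.1 to 142 RPKM), and whether the counting used strand is not given in the sources used here, so its value is uncertain.

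MVK, the kinase that phosphorylates mevalonate (chromosome 12, 110011500 to 110035071), ran the same course at a lower level. Panc-1 had 17.9 RPKM in mock, 8.80, 7.36 and 18.9 RPKM after 1, 5 and 24 h of ANG and 7.27, 6.17 and 17.2 RPKM of EGF. AsPC-1 had 5.55 RPKM in mock, 2.18, 2.38 and 5.55 RPKM with ANG and 2.82, 2.07 and 8.53 RPKM with EGF. Neither line showed overlap of early with other libraries, and the difference was 1.21 ± 0.10 (adjusted p = 0.00117). MMAB, a cobalamin enzyme gene that lies head to head with MVK with 141 bases between them, rose too (1.01 ± 0.19, adjusted p = 0.0128).

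MVD, the decarboxylase that makes isopentenyl diphosphate (chromosome 16, 88718348 to 88729495), moved most in Panc-1. There it had 39.5 RPKM in mock, 8.35, 8.24 and 37.8 RPKM after 1, 5 and 24 h of ANG and 9.99, 7.48 and 40.4 RPKM of EGF. In AsPC-1 the values were 5.71 RPKM in mock, 4.15, 4.17 and 6.44 RPKM with ANG and 4.66, 6.10 and 9.69 RPKM with EGF, and the 5 h EGF library overlapped mock. The mean of 24 h was 4.59 times that of 1 and 5 h in Panc-1 and 1.69 times in AsPC-1 (1.36 ± 0.27 over both, adjusted p = 0.0153).

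IDI1, the isomerase that makes dimethylallyl diphosphate (chromosome 10, 1085964 to 1095061), had 84.6 RPKM in Panc-1 mock, 31.4, 25.7 and 56.5 RPKM after 1, 5 and 24 h of ANG and 37.9, 32.4 and 73.7 RPKM of EGF. Its AsPC-1 values were 29.2 RPKM in mock, 10.9, 11 and 25.6 RPKM with ANG and 12.3, 12.2 and 32.4 RPKM with EGF. Early and other libraries were apart in both lines, with a difference of 1.13 ± 0.08 (adjusted p = 0.000795). FDPS, the farnesyl diphosphate synthase (chromosome 1, 155278539 to 155290457), had 109.5 RPKM in Panc-1 mock, 41.9, 35.3 and 89.5 RPKM with ANG and 42.9, 36.6 and 101 RPKM with EGF. The AsPC-1 libraries held 65.6 RPKM in mock, 31.7, 28.5 and 64.6 RPKM with ANG and 32.4, 30.6 and 79.5 RPKM with EGF. Its groups did not overlap either, and the difference was 1.23 ± 0.07 (adjusted p = 0.000352).

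The other 3 mevalonate genes differed among themselves. HMGCS1, the synthase of HMG-CoA, spanned 26.5 to 77.8 RPKM over the Panc-1 libraries and 12.7 to 27.8 RPKM over those of AsPC-1 and rose to 24 h (0.83 ± 0.14, adjusted p = 0.00922). PMVK, the kinase after MVK, spanned 18.7 to 25.0 RPKM over the Panc-1 libraries and 15.6 to 29.1 RPKM over those of AsPC-1, and its difference did not pass (0.21 ± 0.16, adjusted p = 0.40). GGPS1, which makes geranylgeranyl diphosphate off the route to cholesterol, spanned 18.1 to 23.9 RPKM and 11 to 23.8 RPKM and did not pass (0.33 ± 0.15, adjusted p = 0.153).

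**Figure D2:**
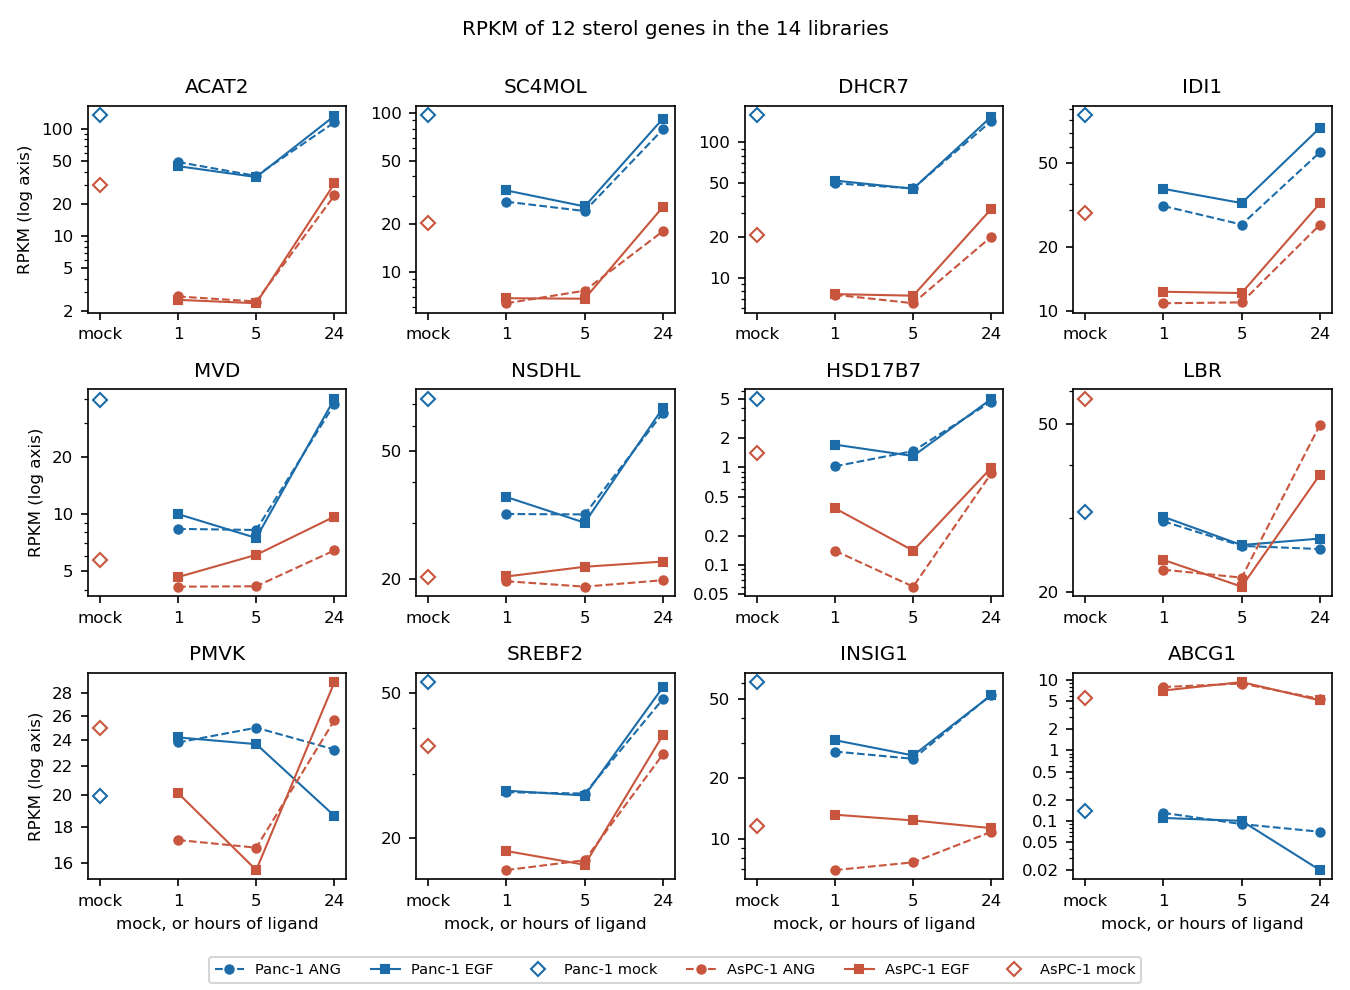
RPKM (log axis, a different range in each panel) of 12 genes in mock (open diamonds) and after 1, 5 and 24 h of ANG (circles, broken lines) or EGF (squares, full lines) in Panc-1 (blue) and AsPC-1 (red), 1 library per point. ACAT2, SC4MOL, DHCR7 and IDI1 are low at 1 and 5 h in both lines, LBR in AsPC-1, and NSDHL in Panc-1.

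Among the sterol enzymes FDFT1, the squalene synthase (chromosome 8, 11660190 to 11696818), had 76.1 RPKM in Panc-1 mock, 36.8, 32.5 and 71.9 RPKM after 1, 5 and 24 h of ANG and 36.8, 32.3 and 70.8 RPKM of EGF. AsPC-1 had 112 RPKM in mock, 38.3, 36.8 and 102 RPKM with ANG and 39.9, 33.6 and 111 RPKM with EGF. The early libraries were below the others in both lines (1.26 ± 0.10, adjusted p = 0.00117). SQLE, the squalene epoxidase, spanned 26.7 to 69.8 RPKM over the Panc-1 libraries and 12.6 to 27.7 RPKM over those of AsPC-1 and rose (0.83 ± 0.12, adjusted p = 0.00661).

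LSS, which closes the rings to lanosterol (chromosome 21, 47608360 to 47648738), had 46.1 RPKM in Panc-1 mock, 14.6, 14.8 and 41.0 RPKM with 1, 5 and 24 h of ANG and 14.2, 12.8 and 36.3 RPKM with EGF. Its AsPC-1 values were 10.5 RPKM in mock, 5.39, 5.12 and 9.71 RPKM with ANG and 5.90, 5.68 and 12.8 RPKM with EGF. Early libraries were lowest in both lines (1.15 ± 0.11, adjusted p = 0.00198).

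SC4MOL, the C4-methyl oxidase (chromosome 4, 166248818 to 166264225), had 97.1 RPKM in Panc-1 mock, 27.7, 24.2 and 79.2 RPKM after 1, 5 and 24 h of ANG and 32.6, 25.9 and 92.5 RPKM of EGF. The AsPC-1 libraries held 20.3 RPKM in mock, 6.35, 7.62 and 18.1 RPKM with ANG and 6.83, 6.78 and 25.7 RPKM with EGF. The ratio of 24 h to 1 and 5 h was 3.11 in the first line and 3.17 in the second, and the difference was 1.56 ± 0.11 (adjusted p = 0.000795). Its promoter is the first of the windows printed above.

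DHCR7, the reductase of the last step (chromosome 11, 71145457 to 71159477), had 159 RPKM in Panc-1 mock, the highest level in the set, with 49.9, 45.8 and 144 RPKM after 1, 5 and 24 h of ANG and 52.3, 45.5 and 155 RPKM of EGF. AsPC-1 had 20.8 RPKM in mock, 7.51, 6.5 and 20.2 RPKM with ANG and 7.59, 7.39 and 32.4 RPKM with EGF. The groups were apart in both lines, and the difference was 1.65 ± 0.09 (adjusted p = 0.000352). C14orf1, the scaffold of the C4-demethylation enzymes (chromosome 14, 76117233 to 76127538), had 47.9 RPKM in Panc-1 mock, 19.6, 17 and 44.4 RPKM with ANG and 21.2, 15.6 and 37.7 RPKM with EGF. The AsPC-1 libraries held 22.6 RPKM in mock, 7.99, 8.32 and 20.4 RPKM with ANG and 8.47, 7.46 and 18.7 RPKM with EGF. The same separation held in both lines (1.15 ± 0.08, adjusted p = 0.000795).

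HSD17B7, the 3-ketosteroid reductase of C4 demethylation (chromosome 1, 162760496 to 162782608), was the lowest enzyme. Panc-1 had 5.02 RPKM in mock, 1.02, 1.46 and 4.69 RPKM after 1, 5 and 24 h of ANG and 1.70, 1.30 and 4.99 RPKM of EGF. AsPC-1 had 1.41 RPKM in mock, 0.14, 0.06 and 0.87 RPKM with ANG and 0.38, 0.14 and 0.99 RPKM with EGF, which is a few reads in the early libraries. The difference was 1.01 ± 0.14 (adjusted p = 0.00491), and the pseudocount of 1 shrinks it in AsPC-1. A pseudogene copy (HSD17B7P2) can share its reads.

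TM7SF2, a sterol C14 reductase, spanned 16.3 to 59.2 RPKM over the Panc-1 libraries and 2.38 to 6.38 RPKM over those of AsPC-1 and rose (0.86 ± 0.17, adjusted p = 0.0155). At 24 h it had 59.2 RPKM with ANG and 33.5 RPKM with EGF in Panc-1, and 6.34 and 3.31 RPKM in AsPC-1. The AsPC-1 libraries of 1 and 5 h of EGF held 2.49 and 2.62 RPKM, so the step with EGF was small there. LBR, a protein of the nuclear envelope with the same reductase activity (chromosome 1, 225589204 to 225616519), behaved otherwise. Panc-1 had 30.9 RPKM in mock, 29.4, 25.7 and 25.3 RPKM after 1, 5 and 24 h of ANG and 30.1, 25.8 and 26.7 RPKM of EGF. AsPC-1 had 57.4 RPKM in mock, 22.6, 21.6 and 49.8 RPKM with ANG and 23.8, 20.6 and 37.9 RPKM with EGF, so its early libraries stood apart in AsPC-1 and overlapped the others in Panc-1.

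The remaining 4 sterol enzymes did not pass over the 4 courses. CYP51A1, the lanosterol demethylase (0.50 ± 0.14, adjusted p = 0.0503), SC5DL, the C5 desaturase (0.51 ± 0.15, adjusted p = 0.0556), and NSDHL, the C4 dehydrogenase (0.55 ± 0.18, adjusted p = 0.0721), were near the threshold, and EBP, the isomerase, was at 0.25 ± 0.11 (adjusted p = 0.134). NSDHL spanned 29.98 to 72.8 RPKM over the Panc-1 libraries and 19.0 to 22.7 RPKM over those of AsPC-1. EBP kept a narrow range in both lines, 45.8 to 69.3 RPKM and 53.0 to 78.9 RPKM.

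The sensor genes divided. SREBF2 (chromosome 22, 42229106 to 42302375) had 53.6 RPKM in Panc-1 mock, 26.7, 26.5 and 48.1 RPKM after 1, 5 and 24 h of ANG and 26.9, 26.1 and 51.9 RPKM of EGF. The AsPC-1 libraries held 35.8 RPKM in mock, 16.3, 17.3 and 33.9 RPKM with ANG and 18.4, 16.9 and 38.3 RPKM with EGF. Early libraries lay below the others in both lines, by a similar step (ratio of 24 h to early 1.88 and 2.10), and SREBF2 rose (0.96 ± 0.07, adjusted p = 0.000795). SCAP spanned 8.77 to 10.7 RPKM over the Panc-1 libraries and 10.4 to 14.01 RPKM over those of AsPC-1, and its difference did not pass (0.15 ± 0.08, adjusted p = 0.237).

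INSIG1, itself a target of SREBP-2 (chromosome 7, 155089486 to 155101945), had 60.8 RPKM in Panc-1 mock, 27.3, 25.1 and 52.6 RPKM after 1, 5 and 24 h of ANG and 31.1, 26.1 and 52.3 RPKM of EGF. In AsPC-1 it had 11.6 RPKM in mock, 6.95, 7.6 and 10.8 RPKM with ANG, but 13.2, 12.3 and 11.3 RPKM with EGF. Its early libraries were low in Panc-1 and with ANG in AsPC-1, and not with EGF in AsPC-1, where they lay above mock; over the 4 courses it did not pass (0.55 ± 0.17, adjusted p = 0.0607). INSIG2 spanned 3.17 to 7.2 RPKM over the Panc-1 libraries and 19.8 to 27.5 RPKM over those of AsPC-1 and rose (0.41 ± 0.11, adjusted p = 0.0403).

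Of the uptake and transport genes STARD4, a carrier of sterol between membranes, rose (0.85 ± 0.16, adjusted p = 0.0131; 2.90 to 10.1 RPKM over the Panc-1 libraries, 2.17 to 5.92 RPKM over those of AsPC-1). NPC1, which exports cholesterol from lysosomes, was at 0.37 ± 0.12 (adjusted p = 0.0658), with 34.3 to 58.3 RPKM over the Panc-1 libraries and 26.2 to 58.6 RPKM over those of AsPC-1. MYLIP, the ligase that marks lipoprotein receptors for degradation, was at -0.05 ± 0.11 (adjusted p = 0.752), with 3.17 to 4.87 RPKM and 5.60 to 10.1 RPKM.

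The efflux genes did not share the course of the enzymes. ABCA1 (chromosome 9, 107543284 to 107690436) had 1.39 RPKM in Panc-1 mock, 1.26, 1.30 and 1.41 RPKM with 1, 5 and 24 h of ANG and 1.18, 1.03 and 0.89 RPKM with EGF. In AsPC-1 it had 1.12 RPKM in mock, 1.18, 1.36 and 1.14 RPKM with ANG and 0.80, 1.57 and 0.33 RPKM with EGF. No order by time was shared by its courses (-0.21 ± 0.14, adjusted p = 0.304). ABCG1 (chromosome 21, 43619799 to 43717354) was near the value of a few reads in Panc-1, at 0.14 RPKM in mock, 0.13, 0.09 and 0.07 RPKM with ANG and 0.11, 0.10 and 0.02 RPKM with EGF. In AsPC-1 it had 5.58 RPKM in mock, 7.96, 8.93 and 5.39 RPKM with ANG and 7.10, 9.37 and 5.14 RPKM with EGF, so there the early libraries were the high ones (-0.33 ± 0.12 over both lines, adjusted p = 0.0926).

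The same comparison within each line asked which genes moved in which line. In Panc-1 22 of the 30 rose to 24 h and 0 fell (17.3% and 18.2% of all genes, 35.5% in either direction), and in AsPC-1 20 rose and 1, ABCG1, fell (30.9% and 20.1% of all genes, 51% in either direction; ABCG1 -0.57 ± 0.11, adjusted p = 0.00188). Of these, 16 genes rose in both lines (5.05% of all genes did): ACAT2, HMGCS1, MVK, MVD, IDI1, FDPS, FDFT1, SQLE, LSS, TM7SF2, SC4MOL, HSD17B7, DHCR7, C14orf1, SREBF2 and STARD4. CYP51A1, NSDHL, SC5DL, INSIG1, INSIG2 and NPC1 passed in Panc-1 and not in AsPC-1, and PMVK, GGPS1, LBR and SCAP in AsPC-1 and not in Panc-1. EBP, MYLIP and ABCA1 passed in neither. Leaving out a single library of 24 h ended the call of HMGCS1, TM7SF2 and STARD4 in Panc-1 (adjusted p up to 0.0617, 0.124 and 0.0509) and of HMGCS1 and STARD4 in AsPC-1 (up to 0.0884 and 0.150). In AsPC-1 TM7SF2 was lost without any 1 of the 3 ANG libraries or without the filter (up to 0.428), and SCAP without the ANG library of 1 h, without either library of 24 h or with centring on medians (up to 0.204). In Panc-1 NPC1 passed in 6 of 16 other settings.

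Whether a gene moved differently in the 2 lines was tested as the difference of their time differences, AsPC-1 minus Panc-1. It passed for 14 of the 30 genes, 5 higher and 9 lower, a share close to that of all genes tested (45.4%, 26.4% higher and 19.1% lower). ABCG1 reached the filter of 1 RPKM through AsPC-1 alone and HSD17B7 through Panc-1 alone, so these 2 support nothing between the lines, and 5 higher and 7 lower are left among the other 28. Higher in AsPC-1 were ACAT2 (1.44 ± 0.21, adjusted p = 0.000522), LBR (1.03 ± 0.16, 0.000660), PMVK (0.83 ± 0.15, 0.00159), GGPS1 (0.66 ± 0.16, 0.00911) and FDFT1 (0.47 ± 0.13, 0.0164). For LBR, PMVK and GGPS1 the difference within Panc-1 was -0.09, -0.20 and 0.00, and within AsPC-1 0.94, 0.62 and 0.66. The 9 that were lower in AsPC-1 were led by MVD (-1.44 ± 0.18, adjusted p = 0.000196), NSDHL (-0.96 ± 0.11, 0.000162) and INSIG1 (-0.74 ± 0.20, 0.0129). Without the Panc-1 library of 24 h EGF 7 of the 14 passed and without the AsPC-1 library of 24 h ANG 9, and ACAT2, LBR, PMVK, MVD, NSDHL and LSS passed under each of the 16 other settings. INSIG1 was lost without the Panc-1 library of 24 h ANG or the AsPC-1 library of 24 h EGF (adjusted p up to 0.0754).

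**Figure D3:**
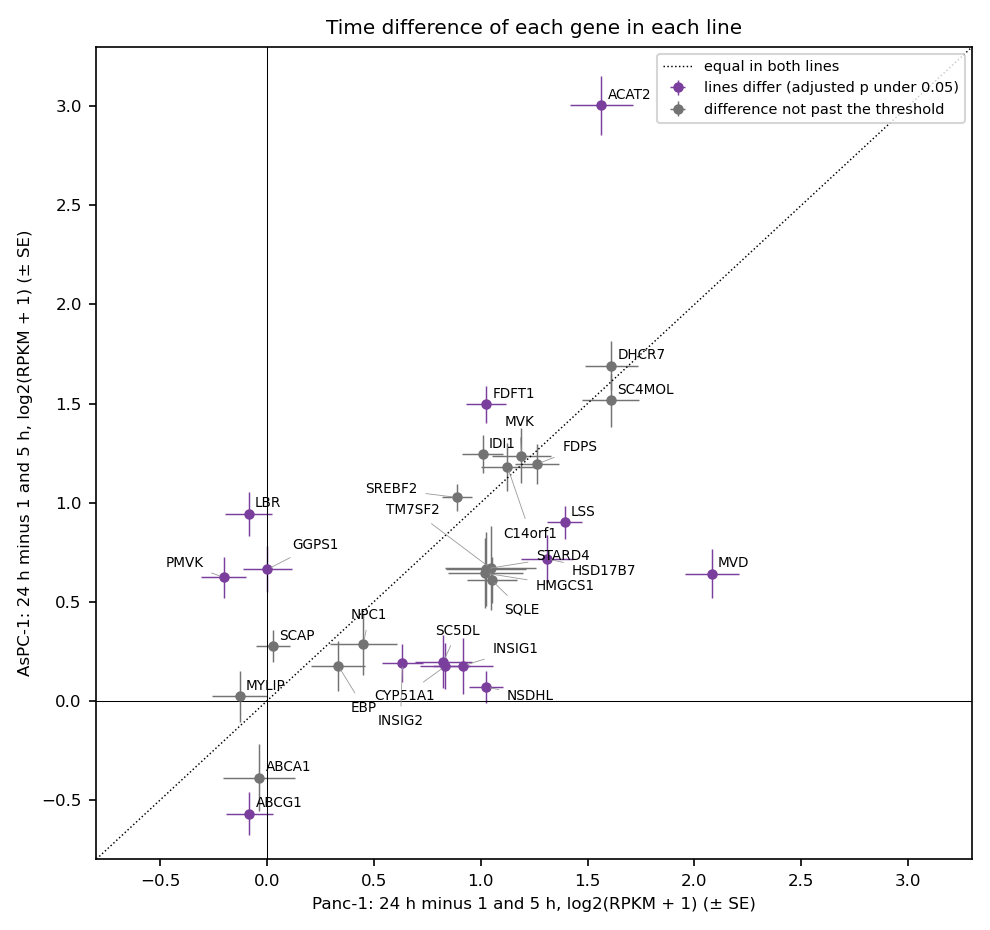
Difference between 24 h and the mean of 1 and 5 h in Panc-1 (horizontal) and AsPC-1 (vertical), in log2(RPKM + 1) with bars of 1 SE, for the 30 genes; purple points differ between the lines (limma adjusted p under 0.05). DHCR7, SC4MOL, MVK, FDPS and SREBF2 lie near the line of equal difference, ACAT2 and LBR above it, and MVD and NSDHL below it.

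Other genes of the pathway's surroundings were counted in the same comparison over 4 courses. The shares of all genes are again 8.82% that rose and 6.4% that fell. Of 14 other SREBP targets, mostly of fatty acid synthesis, 10 rose to 24 h and 0 fell, among them the desaturases FADS2 (1.89 ± 0.14, adjusted p = 0.000795) and SCD (1.27 ± 0.12, 0.00166), the acetyl-CoA synthetase ACSS2 (1.68 ± 0.20, 0.00359) and the phosphatidate phosphatase LPIN1 (1.08 ± 0.14, 0.00443). Within a line, 13 of these 14 rose and 0 fell in Panc-1 (17.3% and 18.2% of all genes). In AsPC-1 9 of the 14 rose and 0 fell (30.9% and 20.1%), and 2 had a difference below 0, down to -0.22. Of 9 genes of SREBP processing and INSIG turnover 1 rose, a share near that of all genes. Of 10 genes that use isoprenoids 2 fell, the prenyltransferase subunit PGGT1B (-0.69 ± 0.09, 0.00491) and PDSS1 of ubiquinone synthesis (-0.52 ± 0.10, 0.0132). Of 10 genes of LXR and cholesterol storage 5 rose, with the phosphodiesterase-like SMPDL3A (0.77 ± 0.19, 0.0288) and the LXR gene NR1H3 (0.75 ± 0.18, 0.0266) largest. Both were low in Panc-1: SMPDL3A spanned 1.18 to 2.80 RPKM there and 17.2 to 64.9 RPKM in AsPC-1, and NR1H3 2.80 to 5.43 and 21.5 to 82.65 RPKM. Within a line, 3 of the 10 rose and 1 fell in Panc-1 (17.3% and 18.2% of all genes). In AsPC-1 6 rose and 0 fell (30.9% and 20.1%).

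The comparison of 5 h with 1 h, over the same 4 courses, gave 0 of the 30 genes past the threshold in either direction and 0 at an unadjusted p under 0.05 (limma; 0% of all genes tested passed, and 1.12% were at that unadjusted p). The largest difference was that of ACAT2 (-0.23, interval -0.93 to 0.46), and that of SREBF2 was -0.02 (interval -0.20 to 0.16).

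EGF and ANG were compared in the 6 pairs of the same line and time. With limma 0 of the 30 genes passed (0.142% of all genes were higher, 0.0149% lower, 0.156% either), and 11 had an unadjusted p under 0.05, against 16% of all genes. The EGF library was above the ANG library in 6 of 6 pairs for 7 genes (5.62% of all genes) and below it in 6 of 6 for 1 (4.57%). These 7 were HMGCS1 (0.32, 95% interval 0.13 to 0.52), IDI1 (0.27, 0.15 to 0.38), FDPS (0.11, -0.01 to 0.23), SQLE (0.27, 0.11 to 0.44), CYP51A1 (0.22, 0.05 to 0.39), STARD4 (0.37, 0.13 to 0.60) and NPC1 (0.45, 0.22 to 0.69). MYLIP was the one below (-0.34, interval -0.54 to -0.14). The share of reads in genes under 400 bp differed within pairs, in either direction. In AsPC-1 it was 5.29% with EGF and 17.2% with ANG at 5 h, and 13.5% and 11.6% at 24 h. With rescaling to reads outside those genes the median EGF minus ANG of the 30 genes was 0.001, against 0.057 without. That of all genes was -0.066, against -0.016. The signs in the pairs were not counted again after rescaling. The lowest adjusted p among the 30 was that of IDI1 (0.111; unadjusted p = 0.000694). ACAT2 (0.05, interval -0.12 to 0.21), FDFT1 (0.00, -0.11 to 0.11) and SREBF2 (0.07, -0.05 to 0.18) had intervals that span 0 and end below their differences over time (2.28, 1.26 and 0.96).

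**Figure D4:**
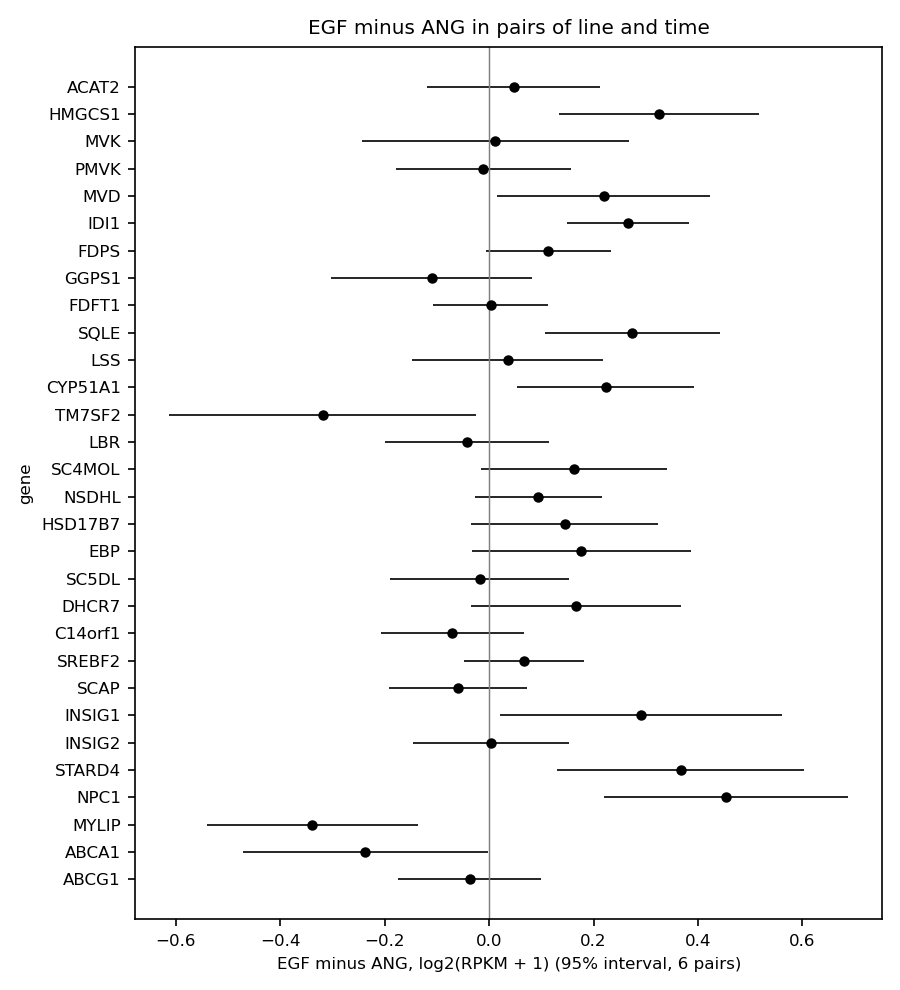
EGF minus ANG in log2(RPKM + 1) for the 30 genes over 6 pairs of line and time, with 95% intervals (limma, unadjusted). Points lie between -0.34 (MYLIP) and 0.45 (NPC1), and none passed after adjustment over all genes.

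Within a single line 0 of the 30 passed for EGF minus ANG (0% of all genes in either line; unadjusted p under 0.05 for 1 gene in Panc-1, against 7.93% of all genes, and for 12 in AsPC-1, against 17.5%). The difference between the lines passed for 0 (0% of all genes; 1 at an unadjusted p under 0.05, against 7.74% of all genes). The difference between the ligands in the time difference passed for 0 as well (0% of all genes; 1 at an unadjusted p under 0.05, against 2.07% of all genes), so the rise to 24 h was not shown to differ between EGF and ANG.

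In a fit of line and condition over all 14 libraries, 6 of the 30 genes were lower than mock at 1 h of ANG (0.0819% of all genes were). At 5 h of ANG 7 were lower (0.112%). With EGF 7 were lower at 1 h (0.454%) and 13 at 5 h (3.63%, with 4.24% in either direction). At 24 h 0 passed with either ligand (0%). There, limma gave an unadjusted p under 0.05 for 1 gene with ANG, against 1.5% of all genes, and for 4 with EGF, against 7.14%. The time and serum of mock are not in the labels, and no untreated library is labelled with 1, 5 or 24 h. An effect of the ligand thus cannot be told apart here from one of serum, handling or time. C14orf1, DHCR7, FDPS, IDI1, SC4MOL and SREBF2 were lower in all 4 of these early comparisons, which share the mock libraries. These counts rest on the 2 mock libraries and on few residual degrees of freedom: without any 1 library the count after 1 h of ANG was 0, and after 5 h of EGF it was 0 without any 1 of the 4 libraries compared.

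The lines themselves differed in level in most of the set. Over the 7 matched conditions 20 of the 30 genes were lower in AsPC-1 and 5 higher (39.6% and 29.3% of all genes, 68.8% in either direction). Without ABCG1 and HSD17B7, which reached the filter through 1 line each, the counts were 19 lower and 4 higher of 28. The largest differences toward Panc-1 were those of ACAT2 (-2.96 ± 0.26, limma adjusted p = 1.09e-05), TM7SF2 (-2.80 ± 0.11, 6.97e-08), DHCR7 (-2.60 ± 0.09, 2.47e-08), SC4MOL (-1.93 ± 0.09, 2.11e-07) and INSIG1 (-1.75 ± 0.17, 2.27e-05). ABCG1 stood at 5.14 to 9.37 RPKM in AsPC-1 against 0.02 to 0.14 RPKM in Panc-1. The other genes higher in AsPC-1 were INSIG2 (2.08 ± 0.10), MYLIP (0.79 ± 0.09), FDFT1 (0.30 ± 0.10) and SCAP (0.26 ± 0.08). The 2 INSIG genes thus stood in opposite order: INSIG1 had a median of 31.1 RPKM and INSIG2 3.76 RPKM in Panc-1, against 11.3 and 21.6 RPKM in AsPC-1. CYP51A1, EBP, LBR, PMVK and ABCA1 did not pass.

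**Figure D5:**
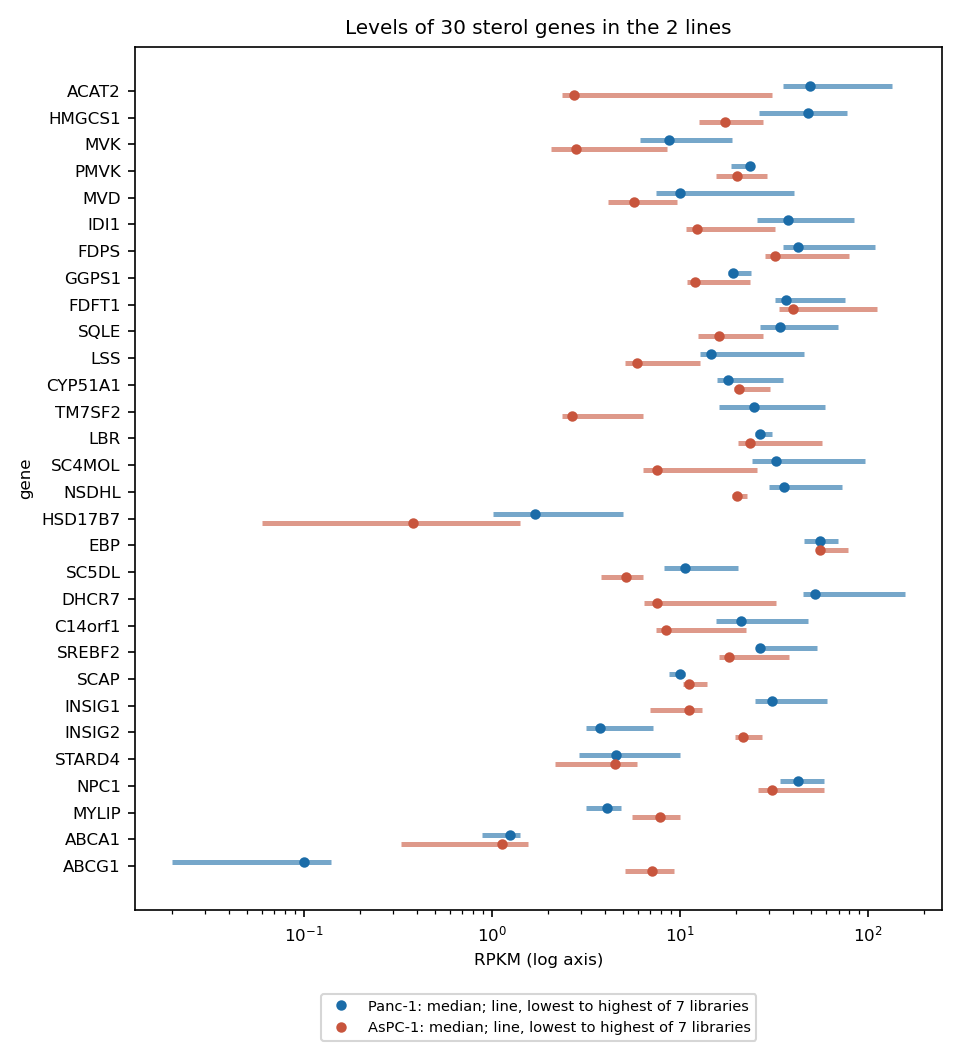
Median (point) and lowest to highest value (line) of RPKM over the 7 libraries of Panc-1 (blue) and of AsPC-1 (red) for the 30 genes, on a log axis. ACAT2, TM7SF2 and DHCR7 have the widest gap toward Panc-1, and ABCG1 and INSIG2 toward AsPC-1.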

How the data were processed

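The deposited files give each gene's log2 RPKM in each library; the authors' genome build was hg19, per the submitters' processing notes, and the sources used here name no aligner, counter, annotation or use of strand. Raising them to the power of 2 gave RPKM rounded to 0.01 (95.8% of values under 5 RPKM lie within 0.001 of such a step), and the lowest value, -8.966, was read as 0. Depth was estimated from the RPKM worth of 1 read.

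The 13427 of 23040 genes that reached 1 RPKM in 2 or more of the 14 libraries were tested on log2(RPKM + 1) with limma 3.58.1 in R 4.3.3, with a variance trend and Benjamini-Hochberg adjustment over all of them, at 0.05. Errors are SE. Terms were line and condition (against mock), condition (between lines), 6 pairs of line and time (EGF against ANG) and 4 courses of line and ligand (times). The fits of 24 h against 1 and 5 h by line or by ligand had no separate term for 5 h. The code of the fits was tried on simulated data with independent errors of a capped spread and few changed genes. This does not show how the fits perform on these libraries.

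The members and lists were chosen with earlier results of these data known. All 30 genes are accounted for; values in every library are given for the 12 with the largest differences among those that passed in the comparison of 24 h with 1 and 5 h over the 4 courses, in that of EGF with ANG, or in a difference of these between lines or ligands (LBR through the last; tests within a line do not count), and for INSIG1, SREBF2, ABCA1 and ABCG1. Of other lists at most 4 genes are named, by size among those that passed, and MMAB is added because it neighbours MVK. Alternatives were a pseudocount of 0.1, no filter, centring libraries on their medians, rescaling to reads outside genes under 400 bp, and leaving out each library.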

Additional observations from a re-analysis of the deposited data

Results flagged for a closer look

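For 14 genes the difference between 24 h and the mean of 1 and 5 h was not the same in AsPC-1 and Panc-1, by a test of that difference (limma, log2 scale, AsPC-1 minus Panc-1). It was above 0 for ACAT2 (1.44), LBR (1.03), PMVK (0.83), GGPS1 (0.66) and FDFT1 (0.47). It was below 0 for MVD (-1.44), NSDHL (-0.96), INSIG1 (-0.74), CYP51A1 (-0.66), SC5DL (-0.63), HSD17B7 (-0.59), LSS (-0.49), ABCG1 (-0.49) and INSIG2 (-0.44). The sign for HSD17B7 turned with a pseudocount of 0.1 (0.23, adjusted p = 0.710), and on RPKM the ratio of 24 h to 1 and 5 h was 5.17 in AsPC-1 and 3.53 in Panc-1. ABCG1 (-0.11 with that pseudocount, adjusted p = 0.764) stood at 0.02 to 0.14 RPKM in Panc-1, near the worth of a few reads, and reached the filter through AsPC-1 alone, as HSD17B7 did through Panc-1, so these 2 support nothing between the lines. Over all genes tested 45.4% passed the same test, as did 18 of 18 G2/M genes.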

How the results depend on the processing

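The count of genes that rose to 24 h (17) was 16 to 19 over the other settings, and no count of the time comparisons other than that between the lines moved by over 1.5 times. The count that differed between the lines (14) ranged from 7 to 15 when 1 library was left out. With a pseudocount of 0.1 the line difference of HSD17B7 changed sign (0.23, limma adjusted p = 0.710) and that of ABCG1 was -0.11 (adjusted p = 0.764). The counts against mock moved most. With libraries centred on their medians 0 genes passed after 1 h of ANG, 0 after 5 h of ANG and 8 after 5 h of EGF, though the medians of the 30 genes for ANG were still -0.74 and -0.75 (-0.90 and -0.95 without centring), with 16 and 15 genes at an unadjusted p under 0.05. Rescaling to reads outside short genes left 0 after 1 h of ANG. Leaving out 1 library gave 0 to 0 genes after 1 h of ANG, 0 to 2 after 5 h of ANG, 0 to 7 after 1 h of EGF and 0 to 12 after 5 h of EGF, where the value was 8 without the Panc-1 library of 5 h ANG; the cause was not tested. The median of all genes lay at -0.12 to -0.17 against mock at 1 and 5 h and moved to 0.03 to 0.05 with centring. The labels carry no replicate numbers, so no block on them could be fitted; EGF and ANG were compared in pairs of the same line and time. Depth limits HSD17B7 in AsPC-1 and ABCG1 in Panc-1, which rest on few reads.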
